A study of Mus musculus with 18 samples.

Results

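The 9 genes described here encode transcription regulators of lipid and energy metabolism: the peroxisome proliferator-activated receptors (PPARs) *Ppara*, *Ppard* and *Pparg*, their heterodimer partner *Rxra*, the coactivators of the PGC-1 family *Ppargc1a* and *Ppargc1b*, and the CCAAT/enhancer-binding proteins (C/EBPs) *Cebpa*, *Cebpb* and *Cebpd*. They were chosen by gene symbol, and all 9 of 9 were found among the 21899 genes of the expression table, in all 18 libraries. The libraries came from liver, epididymal white adipose tissue (eWAT) and quadriceps muscle, with 3 mice fed a control diet (CON) and 3 mice fed a high-salt diet (HSD) for each tissue. All mice were C57BL/6 males of wild type, 18 weeks old. HSD mice received chow with 8% NaCl and 0.9% saline as drinking water for 12 weeks, and CON mice received normal chow and tap water over the same time. Whole tissue was homogenised, so in these bulk samples fewer cells of a type and less RNA per cell cannot be told apart. The question of each diet comparison was how the expression of these regulators in a metabolic tissue differed between HSD and CON mice. Values are FPKM, fragments per kilobase of exon scaled to the depth of the library, and fold changes are on the log2(FPKM + 0.5) scale.

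PPARs are nuclear receptors that bind fatty acids and their derivatives and pair with a retinoid X receptor such as RXRα on direct repeats of a hexamer, called DR1 elements. PPARα drives fatty acid oxidation and ketogenesis in liver, PPARγ drives adipocyte differentiation and lipid storage, and PPARδ promotes fatty acid use in muscle and many other tissues. PGC-1α and PGC-1β do not bind DNA themselves. They dock on nuclear receptors and other factors and raise the expression of genes for mitochondria and oxidative metabolism. C/EBPβ and C/EBPδ act early in adipogenesis, before C/EBPα and PPARγ, which maintain each other in the mature adipocyte, and C/EBPα and C/EBPβ also act on hepatocyte genes for gluconeogenesis and acute phase proteins.

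Promoter sequences from RefSeq (GRCm38.p6) were matched by symbol for 7 of the 9 genes, and 3 windows of 250 bases upstream of an annotated start are shown, for the genes whose values the report turns on most. They are written 5′ to 3′ on the strand of the gene. *Cebpb* lies on chromosome 2 and its gene holds a single exon, and the window is chr2:167688665-167688914 on the plus strand. *Ppargc1a* is on the minus strand of chromosome 5, and the window is chr5:51567726-51567975. *Pparg* has 3 start windows on chromosome 6, and the one shown, chr6:115421816-115422065 on the plus strand, is the most distal of the 3 along the gene. Capitals mark the letters TGACG (the core of the cAMP response element) in *Cebpb* and *Ppargc1a*, and TTGCNNAA (a C/EBP-type motif) in *Pparg*, each on either strand.
Cebpb: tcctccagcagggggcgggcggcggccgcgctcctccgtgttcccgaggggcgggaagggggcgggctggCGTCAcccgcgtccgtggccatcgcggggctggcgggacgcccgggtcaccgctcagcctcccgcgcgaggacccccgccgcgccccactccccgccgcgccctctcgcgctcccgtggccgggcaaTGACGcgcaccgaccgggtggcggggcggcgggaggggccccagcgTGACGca
Ppargc1a: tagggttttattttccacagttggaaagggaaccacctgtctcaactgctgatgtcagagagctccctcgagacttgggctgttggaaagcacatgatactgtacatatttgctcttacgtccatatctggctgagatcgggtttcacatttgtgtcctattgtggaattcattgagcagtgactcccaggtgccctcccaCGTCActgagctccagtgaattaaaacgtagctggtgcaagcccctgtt
Pparg: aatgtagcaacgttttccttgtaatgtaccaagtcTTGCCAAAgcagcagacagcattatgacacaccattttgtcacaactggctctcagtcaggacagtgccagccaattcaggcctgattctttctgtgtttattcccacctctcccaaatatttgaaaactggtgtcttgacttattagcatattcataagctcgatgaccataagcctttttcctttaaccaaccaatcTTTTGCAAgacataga
The *Cebpb* window held 3 matches to TGACG and the *Ppargc1a* window held 1, and 17.7% of all 32817 promoter windows of this length held at least 1. The *Pparg* window shown held 2 matches to TTGCNNAA, which 9.57% of the windows held at least once. The *Pparg* windows not shown held 0 matches to it, and the *Ppara* window, also not shown, held 1 match to TGACG. The DR1 element, the hexamer AGGTCA repeated with 1 base between, was searched on both strands as well and had 0 matches in the 10 windows of the 7 genes and a match in 0.0335% of all windows. No 2 of these matches overlapped. A match is a description of the letters and not of a bound site. *Ppargc1b* and *Cebpd* had no entry.

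The library totals fitted from the FPKM were 7628071 to 16637489 fragments, and the regulators were read from 11 fragments (*Ppargc1b*, HSD liver replicate 2) up to 14991 fragments (*Cebpa* in eWAT). Mitochondrially encoded transcripts took 15.4% to 60.8% of the liver libraries, 3.52% to 5.11% of the eWAT libraries and 11.3% to 16.5% of the muscle libraries. The defining markers of the labelled tissue were present in each library, and some libraries also held markers of other tissues or a low level of their own. HSD eWAT replicate 2 held 20210 FPKM of 12 summed epididymis markers against at most 10.4 FPKM in the other eWAT libraries, and 6439 FPKM of 8 summed adipocyte markers against 15250 to 21010 FPKM. CON liver replicate 2 held 4285 FPKM of 9 summed myofibre markers against at most 5.73 FPKM in the other liver libraries. CON eWAT held 143 to 410 FPKM of 12 summed hepatocyte markers against 8.82 to 20.2 FPKM in HSD eWAT. In liver those markers summed to 18760 FPKM in CON replicate 1, the library with 60.8% mitochondrially encoded transcripts, and to 42880 to 95080 FPKM in the other liver libraries. By the names of the libraries, the 18 libraries came from 8 mice, 4 CON and 4 HSD, of which 4 gave all the tissues, and CON liver replicate 2, HSD liver replicate 3 and HSD eWAT replicate 3 are not in the quality summary of the study, which lists 15 libraries.

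**Figure D1:**
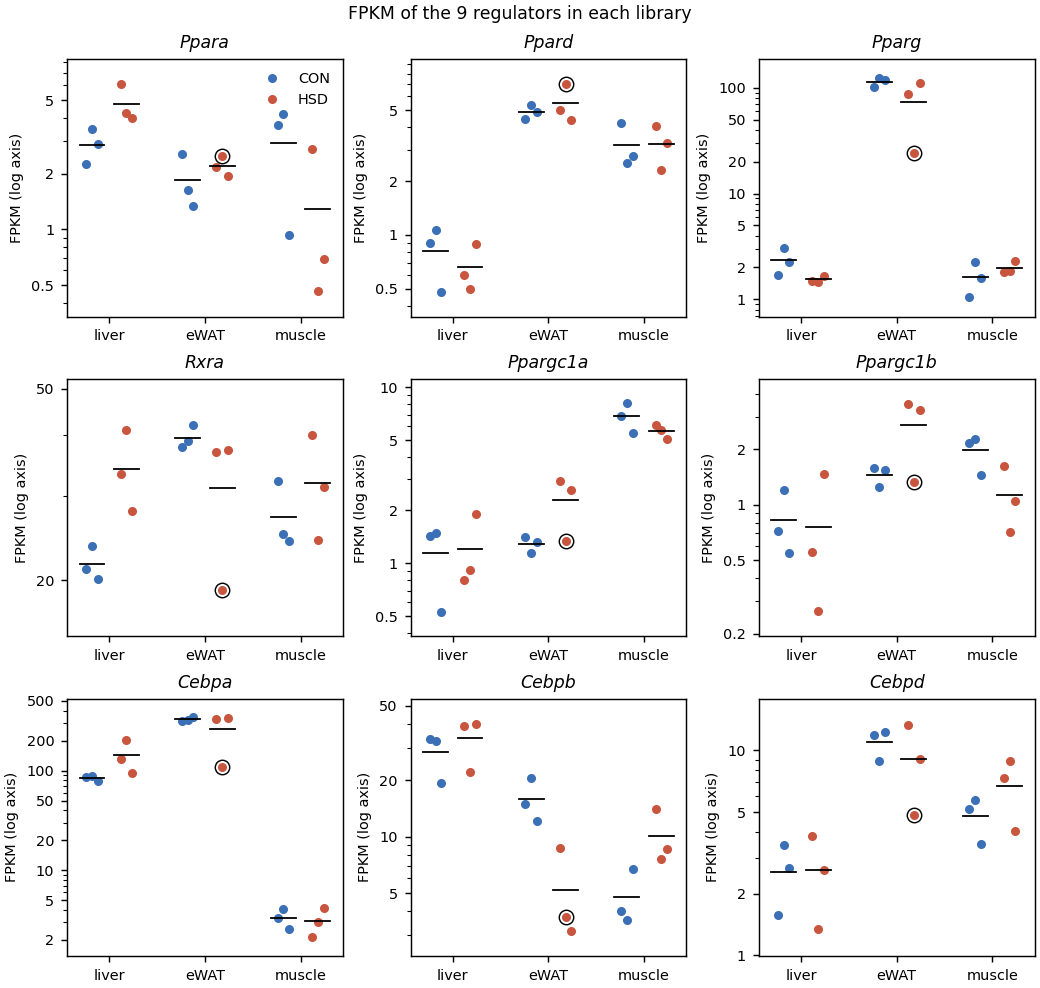
FPKM (log axis) of each regulator in each library, by tissue, for CON (blue) and HSD (red); points are single libraries, black lines are group means (n = 3), and the circled point is HSD eWAT replicate 2. By group mean, *Pparg* and *Cebpa* stood highest in eWAT, *Ppargc1a* in muscle and *Cebpb* in liver (where it overlapped with eWAT in CON), and the HSD points of *Cebpb* lay below CON in eWAT and above CON in muscle.

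Among the PPARs of CON mice, *Pparg* was the one with a tissue of its own. *Pparg* (chromosome 6, 115360951 to 115490399, GRCm38) measured 102, 118 and 123 FPKM in the CON libraries of eWAT. Its level was 1.69, 2.26 and 3.06 FPKM in liver and 1.05, 1.57 and 2.26 FPKM in muscle, so that each eWAT library was far above all libraries of the other tissues. Between eWAT and liver the log2 difference was 5.36 ± 0.40 (SE, limma adjusted p = 7.67e-09), and between eWAT and muscle it was 5.79 ± 0.40. The difference between muscle and liver did not pass the test (-0.43 ± 0.40, adjusted p = 0.368). In muscle, the 8 adipocyte markers summed to 0.307% to 1.35% of their CON eWAT mean, and that share of the eWAT level of *Pparg* would come to 0.351 to 1.55 FPKM, beside 1.05 to 2.32 FPKM measured over the 6 muscle libraries.

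*Ppard* (chromosome 17, 28232700 to 28301474) was measured at 4.46, 4.86 and 5.36 FPKM in CON eWAT, at 2.53, 2.76 and 4.23 FPKM in CON muscle and at 0.480, 0.907 and 1.06 FPKM in CON liver. The 3 groups did not overlap. Liver was the lowest, with log2 differences of 2.06 ± 0.24 (SE) to eWAT and 1.48 ± 0.24 to muscle, and the step from muscle to eWAT was 0.58 ± 0.24 (limma adjusted p = 0.0386). *Ppara* (chromosome 15, 85734983 to 85802819), the receptor of hepatic fatty acid oxidation, showed no such order. It measured 2.26, 2.88 and 3.48 FPKM in CON liver, 1.33, 1.63 and 2.55 FPKM in CON eWAT and 0.932, 3.68 and 4.23 FPKM in CON muscle, and no tissue difference passed the test (smallest limma adjusted p = 0.261). *Rxra* (chromosome 2, 27676440 to 27762957), the shared partner of the PPARs, was well expressed in each tissue of CON mice, at 20.1 to 23.6 FPKM in liver, 24.1 to 32.2 FPKM in muscle and 37.8 to 42.0 FPKM in eWAT. Its difference between eWAT and liver had an adjusted p of 0.00629 with a log2 value of 0.86 ± 0.26 (SE), below the fold limit of 1.

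The PGC-1 coactivators were low in all tissues, and *Ppargc1a* was higher in muscle than in the other tissues. *Ppargc1a* (chromosome 5, 51454250 to 51567726) measured 5.52, 6.86 and 8.13 FPKM in CON muscle. It measured 1.15, 1.32 and 1.41 FPKM in CON eWAT and 0.531, 1.43 and 1.49 FPKM in CON liver, and these 2 tissues overlapped. In CON liver replicate 2, the myofibre markers summed to 7.20% of their CON muscle mean. That share of the muscle level of *Ppargc1a* would come to 0.492 FPKM, beside 1.49 FPKM measured. Muscle exceeded liver by 2.20 ± 0.29 (SE, log2) and eWAT by 2.02 ± 0.29, and both passed the test. *Ppargc1b*, on chromosome 18, measured 1.46, 2.18 and 2.29 FPKM in CON muscle, 1.26, 1.54 and 1.58 FPKM in CON eWAT and 0.548, 0.723 and 1.21 FPKM in CON liver. Only its step between muscle and liver had an adjusted p under the threshold (0.0299), with a log2 difference of 0.91 ± 0.35 (SE).

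The C/EBP genes differed from each other in their tissue order. *Cebpa* (chromosome 7, 35119293 to 35121928) measured 317, 326 and 342 FPKM in CON eWAT, 78.8, 86.7 and 88.1 FPKM in CON liver and 2.58, 3.29 and 4.07 FPKM in CON muscle, with no overlap of the groups. The share of adipocyte markers in the 6 muscle libraries would bring 1.01 to 4.44 FPKM of *Cebpa*, beside 2.14 to 4.16 FPKM measured, and in HSD muscle replicate 2 it would bring 4.44 FPKM beside 3.01 FPKM. Its log2 difference was 1.95 ± 0.38 (SE) between eWAT and liver and 6.45 ± 0.38 between eWAT and muscle. *Cebpb* (chromosome 2, 167688915 to 167690418) followed another order, with 19.3, 32.7 and 33.4 FPKM in CON liver, 12.1, 14.9 and 20.6 FPKM in CON eWAT and 3.59, 4.01 and 6.72 FPKM in CON muscle. Liver and eWAT overlapped (log2 difference -0.81 ± 0.37, limma adjusted p = 0.0570), and muscle was lower than liver by a log2 difference of -2.46 ± 0.37. *Cebpd* (chromosome 16, 15887286 to 15891031) measured 8.89, 12.0 and 12.3 FPKM in CON eWAT, 3.48, 5.20 and 5.70 FPKM in CON muscle and 1.57, 2.66 and 3.44 FPKM in CON liver. It was higher in eWAT than in liver by 1.95 ± 0.38 and than in muscle by 1.14 ± 0.38 (log2, SE).

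With an adjusted p under 0.05 and an absolute log2 difference of at least 1, 4 of the 9 regulators differed between CON eWAT and liver, beside 67.4% of all 13067 genes tested. Between CON muscle and liver it was 4 of 9 beside 48.4%, and between CON eWAT and muscle 5 of 9 beside 53.3%. These counts of the regulators were near or below the background. FPKM depend on the other transcripts of a library, and the median over all genes was 1.33 (log2) for eWAT over liver, 0.48 for muscle over liver and 0.91 for eWAT over muscle. When FPKM were rescaled by median ratios, these medians became 0.01, 0.06 and 0.11, and the share of the called genes that were higher in eWAT than in liver went from 89.6% to 50.7%. The same share went from 70.1% to 51.0% for muscle over liver and from 85.3% to 53.0% for eWAT over muscle. The calls for *Pparg* (3.85 over liver and 4.85 over muscle) and for *Ppargc1a* between muscle and liver and between eWAT and muscle were kept. *Ppard*, *Cebpa* and *Cebpd* then lost their calls between eWAT and liver, while *Ppara* (-1.85) and *Cebpb* (-2.40) were lower in eWAT with a call. *Rxra* then had negative differences of eWAT from liver (-0.75) and from muscle (-0.42). In that scaling 3 of 9 regulators were called between eWAT and liver beside 41.3% of genes, 4 of 9 between muscle and liver beside 47.8% and 5 of 9 between eWAT and muscle beside 37.5%.

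In liver, the diet comparison gave no called regulator, and the group means of *Ppara*, *Rxra* and *Cebpa* were higher in HSD mice. Of 10317 genes tested, 0 were differentially expressed genes (DEGs, limma adjusted p under 0.05 and absolute log2 fold change of at least 1), and 592 (5.74%) had an unadjusted p under 0.05. limma voom on the recovered fragments also gave 0 DEGs. *Ppara* measured 2.26, 2.88 and 3.48 FPKM in CON and 4.03, 4.24 and 6.10 FPKM in HSD, without overlap. Its log2 fold change was 0.65 ± 0.25 (SE, limma adjusted p = 0.764). *Rxra* measured 20.1, 21.2 and 23.6 FPKM in CON and 27.9, 33.2 and 41.1 FPKM in HSD, a log2 fold change of 0.63 ± 0.30. *Cebpa* measured 78.8, 86.7 and 88.1 FPKM in CON and 93.6, 132 and 202 FPKM in HSD, a log2 fold change of 0.68 ± 0.41. For all 3 of these genes the lowest HSD library was above the highest CON library.

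*Pparg*, which is low in liver, lay the other way, at 1.69, 2.26 and 3.06 FPKM in CON and 1.47, 1.49 and 1.66 FPKM in HSD (log2 fold change -0.45 ± 0.23, SE). The groups of these 4 of 9 regulators did not overlap, beside 12.1% of all genes tested, with 8.62% of genes all higher and 3.47% all lower in HSD. The other 5 regulators overlapped between the diets in liver, with log2 fold changes of -0.17 (*Ppard*) to 0.24 (*Cebpb*). The share of mitochondrially encoded transcripts was 25.7%, 37.8% and 60.8% in CON liver and 15.4%, 16.3% and 44.4% in HSD liver, and it moves the FPKM of all other genes. With these transcripts left out and FPKM rescaled, the log2 fold changes were 0.33 for *Ppara*, 0.26 for *Rxra* and 0.31 for *Cebpa*, and -0.79 for *Pparg*, with a median over all genes of -0.20. The separation of the groups given above was read before this rescaling. After it, the groups of *Ppara*, *Rxra* and *Cebpa* overlapped, because CON replicate 1 (60.8% mitochondrially encoded) no longer lay below all HSD libraries. Those of *Pparg* stayed apart. Without CON liver replicate 2, which held the myofibre transcripts, *Ppara* had 0.77, *Rxra* 0.69 and *Cebpa* 0.71, while *Pparg* had -0.27. With the 4 liver libraries of the quality summary of the study, *Ppara* had a log2 fold change of 0.88 (adjusted p = 0.0996) beside 35 DEGs (0.351% of the genes tested), and no regulator was called.

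**Figure D2:**
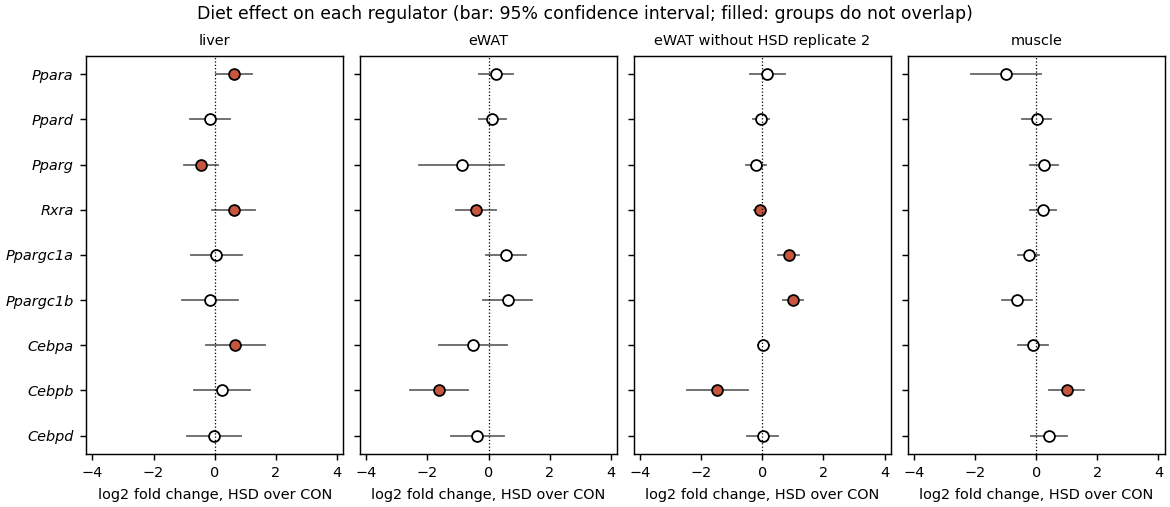
Log2 fold change (HSD over CON, on log2(FPKM + 0.5)) of each regulator in liver, eWAT, eWAT without HSD replicate 2, and muscle; bars are limma 95% confidence intervals and filled points mark genes whose CON and HSD libraries do not overlap. *Cebpb* lies at -1.62 in eWAT and at 1.00 in muscle, and the intervals of *Ppargc1a* and *Ppargc1b* in eWAT leave 0 when HSD replicate 2 is left out.

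In eWAT, the regulator with the largest difference was *Cebpb*, and *Ppargc1a* and *Ppargc1b* stood at 201% to 242% of their CON means in 2 of the 3 HSD libraries. Over all 6 libraries, 0 of 13740 genes were DEGs (limma voom on recovered fragments also gave 0), and 2298 (16.7%) had an unadjusted p under 0.05. *Cebpb* measured 12.1, 14.9 and 20.6 FPKM in CON and 3.15, 3.73 and 8.67 FPKM in HSD, so that all HSD libraries were lower. Its log2 fold change was -1.62 ± 0.39 (SE, limma adjusted p = 0.160). Across the libraries left out in turn, this value was -2.03 to -1.36, and it was -1.47 (adjusted p = 0.0862) without HSD replicate 2. *Rxra* was also lower in all HSD libraries (36.9, 19.1 and 37.3 FPKM against 37.8, 39.0 and 42.0 FPKM), with a log2 fold change of -0.40 ± 0.27. Without HSD replicate 2 its value was -0.09 (95% confidence interval -0.27 to 0.09, limma adjusted p = 0.463). These 2 of 9 regulators did not overlap between the diets, beside 28.6% of all genes, 16.2% all higher and 12.4% all lower in HSD.

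The level of hepatocyte transcripts in CON eWAT was 0.244% to 0.698% of that in CON liver, and the same share of the liver level of *Cebpb* would come to 0.0696 to 0.199 FPKM of the 12.1 to 20.6 FPKM measured. The 8 macrophage markers, of cells in which *Cebpb* is also used, summed to 434 to 639 FPKM in CON eWAT and 185 to 389 FPKM in HSD eWAT. All 8 of these markers were lower on average in HSD, and 5 had an unadjusted limma p under 0.05, beside 7.55% of all genes with such a p and a lower level. None was at 0 in any eWAT library. Their part in the difference of *Cebpb* was not tested. *Cebpb* shares 312 of its 1504 exon bases with *Tmem189* on the opposite strand, whose log2 fold change was -0.30 ± 0.12 (SE) in eWAT (-0.40, adjusted p = 0.0462, without HSD replicate 2) and 0.06 ± 0.15 in muscle, and whether the counting used strand is not given in the sources used here.

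HSD eWAT replicate 2, the library with the epididymis transcripts, stood apart for most regulators. *Pparg* measured 88.0 and 110.1 FPKM in HSD replicates 1 and 3 and 24.2 FPKM in replicate 2, and *Cebpa* measured 333 and 337 FPKM there and 109 FPKM in replicate 2. As a share of the CON mean, replicate 2 held 21.2% of *Pparg*, 33.3% of *Cebpa*, 48.3% of *Rxra* and 43.7% of *Cebpd*, beside 33.8% of *Adipoq*, a secreted protein of adipocytes. Per 1000 FPKM of *Adipoq*, *Cebpa* was 158 in replicate 2 and 149 to 172 in the other 5 eWAT libraries, *Rxra* was 27.6 in replicate 2 and 17.8 to 20.6 in the others, and *Pparg* was 35.0 in replicate 2 and 45.5 to 62.2 in the others. Without this library, *Cebpa* had a log2 fold change of 0.03 (95% confidence interval -0.16 to 0.22) and *Pparg* of -0.21 (-0.53 to 0.11), compared with -0.51 and -0.88 with it.

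**Figure D3:**
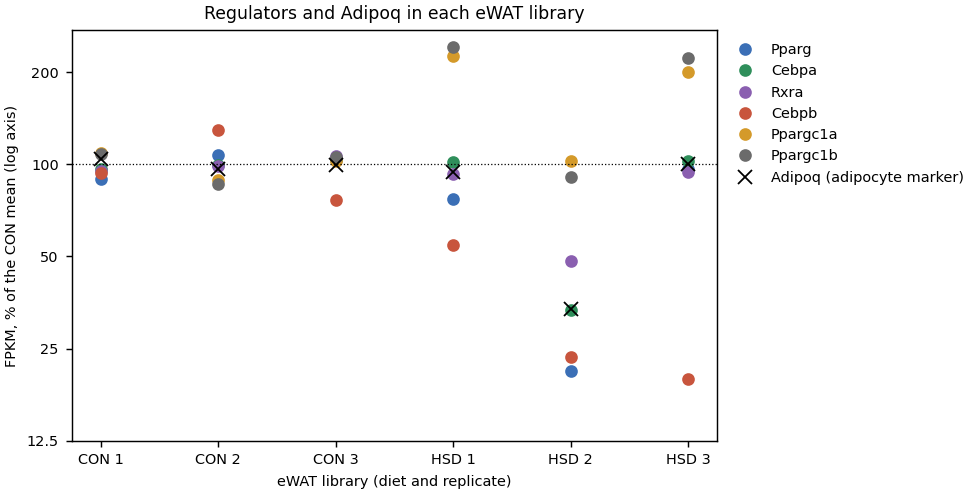
FPKM of 6 regulators and of *Adipoq* (cross) in each eWAT library, as a percentage of the CON mean (log axis, dotted line at the CON mean). *Pparg*, *Cebpa*, *Rxra* and *Adipoq* are low together in HSD replicate 2, *Ppargc1a* and *Ppargc1b* stand at 201% to 242% in HSD replicates 1 and 3, and *Cebpb* is below the CON mean in all HSD libraries.

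The PGC-1 coactivators lay within the CON range in that library. *Ppargc1a* measured 1.15, 1.32 and 1.41 FPKM in CON eWAT, 2.92 and 2.60 FPKM in HSD replicates 1 and 3, and 1.33 FPKM in HSD replicate 2. *Ppargc1b* measured 1.26, 1.54 and 1.58 FPKM in CON eWAT, 3.53 and 3.26 FPKM in HSD replicates 1 and 3, and 1.32 FPKM in HSD replicate 2. Per 1000 FPKM of *Adipoq*, *Ppargc1a* was 1.26 to 1.93 in the 3 HSD libraries, with the highest value in replicate 2, and 0.583 to 0.662 in CON. *Ppargc1b* was 1.58 to 1.91 on that scale in HSD, again highest in replicate 2, and 0.637 to 0.753 in CON. Replicate 2 held 33.8% of the CON mean of *Adipoq*, so the ratio is raised there for any transcript that other cells also carry. The part of the epididymis transcripts in these ratios was not tested. With all 6 libraries neither coactivator passed the test (log2 fold change 0.59 ± 0.27 and 0.63 ± 0.33, SE, limma adjusted p = 0.330 and 0.375). Without HSD replicate 2, *Ppargc1a* had a log2 fold change of 0.86 ± 0.14 (SE, limma adjusted p = 0.0310) and *Ppargc1b* of 0.99 ± 0.13 (adjusted p = 0.0244). An adjusted p under 0.05 was then found for 2 of the 9 regulators, beside 984 of 13245 genes (7.43%), and both stayed under the fold limit of 1 on this scale, which 160 genes (1.21%) passed as DEGs. Without that library the groups did not overlap for 4 of 9 regulators (both coactivators higher, *Cebpb* and *Rxra* lower), beside 46.7% of all genes, 26.2% all higher and 20.5% all lower.

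On scales that shrink low values less, chosen after seeing the data, the same 2 genes passed the fold limit too. The log2 fold change was 1.04 for *Ppargc1a* and 1.17 for *Ppargc1b* with a pseudocount of 0.1, beside 7.73% of genes with an adjusted p under 0.05. It was 1.09 and 1.22 with limma voom on the recovered fragments, beside 7.00%. Both values rest on HSD replicates 1 and 3. Replicate 3 is not in the quality summary of the study, and without it the log2 fold changes were 0.48 and 0.47, and without replicate 1 they were 0.41 and 0.42. HSD replicate 1 held 608 FPKM and replicate 2 held 301 FPKM of 8 summed male germ cell markers, against 38.6 FPKM in replicate 3 and 0.255 to 50.5 FPKM in CON eWAT, and their part in the values was not tested. The 9 myofibre markers summed to 9.19 to 18.1 FPKM in CON eWAT and 29.5 to 45.2 FPKM in HSD eWAT, at most 0.0760% of their level in CON muscle in any eWAT library, a share that would bring at most 0.00520 FPKM of *Ppargc1a*. Over all 18 libraries, the deviations of *Ppargc1a* and *Ppargc1b* from their tissue means had a Pearson correlation of 0.843, the highest among the 36 pairs of regulators, and the points share libraries and their depth. The remaining regulators of eWAT, *Ppara*, *Ppard* and *Cebpd*, overlapped between the diets with and without HSD replicate 2, with log2 fold changes of -0.36 to 0.24 and of -0.05 to 0.16.

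In muscle, *Cebpb* was higher in all HSD libraries and no regulator passed the test. Of 10834 genes, 35 (0.323%) were DEGs and 97 (0.895%) had an adjusted p under 0.05. *Cebpb* measured 3.59, 4.01 and 6.72 FPKM in CON muscle and 7.58, 8.63 and 14.0 FPKM in HSD muscle. Its log2 fold change was 1.00 ± 0.26 (SE, limma adjusted p = 0.106), with a range of 0.75 to 1.25 over the libraries left out in turn. With the replicate number as a block, a pairing that the labels do not give, its limma adjusted p was 0.0558, and 54 genes were DEGs. This was the 1 of 9 regulators whose groups did not overlap, beside 22.3% of all genes (6.72% with all HSD libraries higher and 15.6% with all lower). The macrophage markers were at 40.9 to 74.7 FPKM in CON muscle and 33.2 to 37.5 FPKM in HSD muscle. Of the 7 tested, 5 were lower with an unadjusted limma p under 0.05, beside 12.0% of all genes. Their part in the difference of *Cebpb* in muscle was not tested.

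*Ppargc1b*, the coactivator PGC-1β, had the second smallest p among the regulators in muscle. It measured 1.46, 2.18 and 2.29 FPKM in CON and 0.714, 1.05 and 1.62 FPKM in HSD, with an overlap of the lowest CON and the highest HSD library, and its log2 fold change was -0.62 ± 0.22 (SE, limma adjusted p = 0.204). *Ppara* measured 0.932, 3.68 and 4.23 FPKM in CON muscle and 0.462, 0.693 and 2.72 FPKM in HSD muscle. Its log2 fold change was -0.98 ± 0.51, it was read from 23 to 192 fragments per library, and the spread within each diet was as wide as the difference. Leaving out 1 library moved it from -1.52 to -0.64. *Ppargc1a*, at 5.52 to 8.13 FPKM in CON and 5.06 to 6.10 FPKM in HSD, had a log2 fold change of -0.25 ± 0.15. Within each of the 3 replicate numbers, the HSD library was below the CON library for all 3 of these genes, though the labels do not pair these mice. With the replicate number as a block the limma adjusted p was 0.120 for *Ppargc1b*, 0.166 for *Ppara* and 0.268 for *Ppargc1a*. For *Ppard*, *Pparg*, *Rxra*, *Cebpa* and *Cebpd* the groups overlapped, and their log2 fold changes were -0.10 to 0.41, with 95% confidence intervals that all lay between -0.59 and 1.00.

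Whether a regulator responded differently to HSD in 2 tissues was tested with an interaction term, fitted by limma over the 18 libraries together. No regulator had an adjusted p under 0.05, which held for 103 genes (0.788%) between eWAT and liver, 8 (0.0612%) between muscle and liver and 0 between eWAT and muscle, where 1045 genes had an unadjusted p under 0.05 and limma voom also gave 0. The largest difference was that of *Cebpb* between eWAT and muscle, -2.62 ± 0.53 (log2, SE, limma adjusted p = 0.122). It was -2.47 (adjusted p = 0.140) without HSD eWAT replicate 2, and the adjusted p over the alternatives was 0.0554 to 0.470. In CON mice *Cebpb* was higher in eWAT than in muscle (log2 1.65, adjusted p = 0.00101), and in HSD mice it was lower in eWAT than in muscle (-0.97, adjusted p = 0.0274). The value in HSD mice was under the fold limit of 1. Both values were read before rescaling by median ratios. The median over all genes for eWAT over muscle in CON mice was 0.91 before that rescaling and 0.11 after it. Between eWAT and liver, the difference of the diet effect for *Cebpb* was -1.86 ± 0.53 (adjusted p = 0.144).

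*Rxra* had an interaction of -1.03 ± 0.37 (log2, SE) between eWAT and liver (limma adjusted p = 0.232), with all HSD libraries higher in liver and lower in eWAT. With the 15 libraries of the quality summary, which leave out HSD eWAT replicate 3 and keep replicate 2, *Rxra* (-1.39, adjusted p = 0.0244) and *Cebpa* (-1.76, adjusted p = 0.0410) were called between eWAT and liver, beside 18.7% of all genes. Without HSD eWAT replicate 2, the values were -0.72 and -0.65, and neither passed. With mitochondrially encoded transcripts left out of all 18 libraries they were -0.67 and -0.82, and neither passed. The CON and HSD groups of both genes in liver then overlapped. For *Ppargc1b* the interaction between eWAT and muscle was 1.25 ± 0.49 (limma adjusted p = 0.543).

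Of the related family members *Rxrb*, *Rxrg*, *Cebpg*, *Cebpe*, *Cebpz*, *Ddit3* and *Pprc1*, no gene was called in any tissue. The smallest p was that of *Cebpg*, a C/EBP protein that pairs with the others, in muscle, where it was higher in all HSD libraries (log2 fold change 0.44 ± 0.12, SE, limma adjusted p = 0.128). Of 17 coregulators, 13 had a positive log2 fold change in eWAT and 6 had an unadjusted p under 0.05, all higher, beside 9.18% of all genes, with a list median of 0.19 beside 0.08 for all genes. Without HSD eWAT replicate 2, 3 coregulators, beside 7.43% of all genes in either direction, had an adjusted p under 0.05 and rose: *Ncor1*, a corepressor of nuclear receptors (0.69 ± 0.10, adjusted p = 0.0255), *Sirt1*, a deacetylase that acts on PGC-1α (0.49 ± 0.08, adjusted p = 0.0310), and *Kat2a*, an acetyltransferase of PGC-1α (0.37 ± 0.07, adjusted p = 0.0417). With all libraries these 3 were higher in all HSD libraries as well, with adjusted p of 0.157, 0.249 and 0.228. In liver and muscle, 0 of 16 and 0 of 17 coregulators had an adjusted p under 0.05.

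Of 26 PPARα targets, 20 had a positive log2 fold change in liver, with a list median of 0.46 beside 0.13 for all genes, and 1 had an unadjusted p under 0.05, beside 3.78% of all genes with such a p and a higher level in HSD. Of the 12 hepatocyte markers, 11 also had a positive log2 fold change in liver (median 0.88), and their part and that of the mitochondrial share in the list median was not tested. This target was *Cpt1a*, which admits fatty acids to mitochondria, at 13.0 ± 1.58 FPKM in CON and 25.3 ± 6.44 FPKM in HSD (SD, n = 3), a log2 fold change of 0.91 ± 0.31 (SE). *Cyp4a10* and *Cyp4a14*, fatty acid hydroxylases, had 1.92 ± 0.93 and 1.99 ± 0.97 and overlapped between the diets. In muscle the list median was -0.06, as for all genes, and *Pdk4*, which restrains glucose oxidation, stood out from it with 50.7 ± 21.2 FPKM in CON and 182 ± 87.2 FPKM in HSD (SD, n = 3) and a log2 fold change of 1.77 ± 0.41 (adjusted p = 0.0873). *Acot2*, a mitochondrial thioesterase, had 0.85 ± 0.26 there. In eWAT without HSD replicate 2, *Acaa1b*, a peroxisomal thiolase, rose by 0.83 ± 0.09 (adjusted p = 0.0227).

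Of 24 PPARγ targets, 19 had a negative log2 fold change in eWAT with all libraries (median -0.38 beside 0.08), and 9 without HSD replicate 2 (median 0.07 beside 0.04). In the fit without it, *Me1* and *Scd1*, enzymes of fatty acid synthesis, fell with log2 fold changes of -1.25 ± 0.17 (adjusted p = 0.0243) and -0.88 ± 0.14 (adjusted p = 0.0300), and *Gpihbp1*, the endothelial anchor of lipoprotein lipase, rose by 0.40 ± 0.07 (adjusted p = 0.0310). *Fabp4*, a fatty acid carrier of adipocytes, had 0.47 ± 0.10 (adjusted p = 0.0510). In liver, *Pck1* of gluconeogenesis, a target of both PPARγ and C/EBPs, was higher in all HSD libraries (933 ± 128 FPKM in CON and 2009 ± 180 FPKM in HSD, SD, n = 3, log2 fold change 1.11 ± 0.41, adjusted p = 0.764).

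Of 24 PGC-1 targets, 17 had a negative log2 fold change in muscle (median -0.18 beside -0.06 for all genes). In all HSD libraries 11 of them were lower and 1 was higher, beside 15.6% and 6.72% of all genes tested. No target had an adjusted p under 0.05 there, and 6 had an unadjusted p under 0.05 with a negative and 2 with a positive sign, beside 16.3% of all genes tested in muscle with such a p, 12.0% lower and 4.29% higher. *Tfb1m*, a mitochondrial rRNA methyltransferase, had -0.60 ± 0.13 (limma adjusted p = 0.0670), *Mb*, myoglobin, had -0.74 ± 0.16 (0.0758 for the adjusted p) and *Esrrg*, an orphan receptor that works with PGC-1, had -0.65 ± 0.16 (0.0963). In eWAT without HSD replicate 2, *Vegfa*, an angiogenic factor, rose by 0.45 ± 0.07 (adjusted p = 0.0283), and *Cox5a*, a subunit of cytochrome c oxidase, had -0.42 ± 0.11 (adjusted p = 0.0817).

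Of 17 tested C/EBP targets, 14 had a negative log2 fold change in eWAT (median -1.31 beside 0.08), and 10 of them had an unadjusted p under 0.05, beside 7.55% of all genes. The 4 with the smallest p were *Alb*, *Fgb*, *Tat* and *Cps1*, which hepatocytes express and which are also in the list of 12 hepatocyte markers. All 12 hepatocyte markers were lower in HSD eWAT with a median of -3.13. The part of these transcripts in the list was not tested. *Hp*, haptoglobin, which adipocytes also make, measured 1831 ± 38.1 FPKM (SD, n = 3) in CON eWAT and 945 ± 220 FPKM (SD, n = 2) in the HSD libraries other than replicate 2, and it fell by 0.97 (log2, SE 0.16, adjusted p = 0.0304). It was also lower in all HSD libraries of muscle (-1.12 ± 0.38, adjusted p = 0.193). In liver, 13 of 17 targets had a positive log2 fold change (median 0.76 beside 0.13), and 11 of 12 hepatocyte markers did too (median 0.88). The 4 shared genes count in both lists, so the lists are not separate readings.

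**Figure D4:**
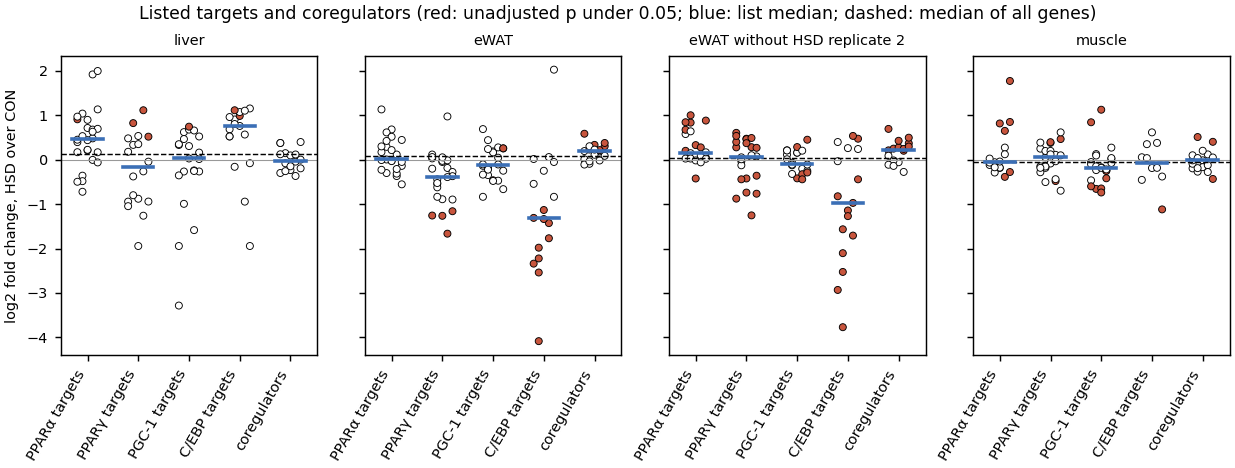
Log2 fold changes (HSD over CON) of the tested genes of 5 lists in liver, eWAT, eWAT without HSD replicate 2, and muscle; red points have an unadjusted limma p under 0.05, blue lines are list medians and dashed lines the median of all genes. The C/EBP targets of eWAT lie lowest, with a median of -1.31, and PPARα targets of liver lie at a median of 0.46. Hepatocyte markers, not drawn as a list, had a median of -3.13 in eWAT and 0.88 in liver. *Alb*, *Fgb*, *Tat* and *Cps1* are both hepatocyte markers and listed C/EBP targets.

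Over the 18 libraries, the genes with the pattern most like each regulator were found among 11740 genes by the Pearson correlation of log2(FPKM + 0.5), which mainly follows the tissue, and all points share their libraries. For *Pparg* they included *Mogat1* (0.994) and *Mc2r* (0.992), and for *Cebpa* they were *Rab32* (0.994), *L3hypdh* (0.994) and *Edem1* (0.992). *Ppard* was most like *Tsc2* (0.986), *Golga2* and *Dync1li2*, and *Ppargc1a* most like *Usp28* (0.960), *Pkdcc* and *Tarsl2*. *Cebpd* was most like *Ccn3* (0.935), *Gucy1b1* and *Mknk2*, and *Cebpb* most like the hepatocyte genes *Apoa1* (0.871), *Mug1* and *Apoa2*. The highest values were lower for *Ppargc1b* (*Ube2o*, 0.831, then *Zfp526* and *Ap4e1*), *Ppara* (*Shld2*, 0.810, then *Ppm1k* and *Fads6*) and *Rxra* (*Gpt2*, 0.799, then *Dhdh* and *Ece1*).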

How the data were processed

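The authors extracted RNA with TRIzol, depleted rRNA, prepared stranded libraries, sequenced paired ends on a NovaSeq, trimmed with cutadapt, aligned to mm10 with hisat2 and deposited FPKM per gene from cuffdiff. The submitters' processing notes also name HTSeq 0.9.1 and mm9, without a role. In 97.6% of genes with a length the FPKM gave whole fragments (within 0.02 of a whole number) at the annotated exon length, and these gave the fragments and library totals. The study's count test needs counts as deposited and was not run.

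HSD and CON were compared with limma 3.58.1 (R 4.3.3, moderated test with a mean trend, Benjamini-Hochberg adjustment over all genes) on log2(FPKM + 0.5) of genes with a mean of at least 0.5 FPKM, within each tissue. Tissue differences and interactions came from 1 fit of the 18 libraries, in which libraries of the same mouse were treated as independent. Genes were called DEGs at an adjusted p under 0.05 with a log2 fold change of 1 or more in size. The scripts were tested on simulated data. The 9 regulators, and the lists of partners, coregulators, targets and markers, were chosen with earlier results of these data known. Named list genes were up to 4 of each list with the smallest p in a tissue, and each regulator's 3 most similar genes with a mean of at least 1 FPKM, 1 of which is not reported here. Other list genes named were chosen after their values were seen. In muscle, deviations of same-numbered libraries correlated (0.38, 0.18 and 0.18), so values with the replicate number as a block are also given there. The labels do not pair CON and HSD mice of the same number, and this block was chosen from the data. Alternatives covered the pseudocount, filter, scaling, library weights, left-out libraries and limma voom, the last on recovered fragments and added after seeing the data. Sequences came from RefSeq tables (GRCm38.p6) and gene positions from the GRCm38 annotation. Python 3.11.15, pandas 2.3.3 and matplotlib 3.10.9 were used.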

Additional observations from a re-analysis of the deposited data

Results flagged for a closer look

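*Rxra* had diet effects of opposite direction in liver and eWAT, where each HSD library was above all CON libraries in liver and below all CON libraries in eWAT. The difference of the effects was -1.03 on the log2 scale (limma adjusted p = 0.232, which did not pass). Without HSD eWAT replicate 2 the difference was -0.72 (adjusted p = 0.333) and the effect in eWAT was -0.09, with the remaining HSD libraries at 36.9 and 37.3 FPKM against 37.8 FPKM in the lowest CON library. With mitochondrially encoded transcripts left out and FPKM rescaled, the effect in liver was 0.26 and the difference was -0.67 (limma adjusted p = 0.453). The separation of the groups in liver was read before that rescaling. It was lost after it, where CON liver replicate 1 lay above the HSD libraries.

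*Cebpb* had diet effects of opposite direction in eWAT and muscle, where each HSD library was below all CON libraries in eWAT and above all CON libraries in muscle. The difference of the effects was -2.62 on the log2 scale (limma adjusted p = 0.122, which did not pass).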

How the results depend on the processing

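Of the values of single regulators under the alternatives, 1120 kept their direction and their side of the threshold, 18 passed it newly, 7 lost it and 50 changed sign. Of the gene counts, 107 were within 1.5 times the main count and 32 were not. The cause of these changes was not tested.

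With libraries left out in turn, the number of DEGs was 0 to 1 in liver, 0 to 160 in eWAT (160 without HSD replicate 2) and 10 to 61 in muscle (35 with all libraries). The values that changed sign ranged in liver from -0.25 to 0.22 for *Ppargc1a*, from -0.53 to 0.15 for *Ppargc1b*, from -0.014 to 0.51 for *Cebpb* and from -0.30 to 0.32 for *Cebpd*. In eWAT they ranged from -0.049 to 0.26 for *Ppard*, from -0.78 to 0.030 for *Cebpa* and from -0.68 to 0.0067 for *Cebpd*, and in muscle from -0.15 to 0.21 for *Ppard* and from -0.31 to 0.10 for *Cebpa*. In CON mice, muscle over liver ranged from -0.45 to 0.42 for *Ppara* and eWAT over liver from -0.13 to 0.34 for *Ppargc1a*.

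Without HSD eWAT replicate 2, the differences of the diet effect that changed sign were 0.24 for *Pparg* and 0.024 for *Cebpd* between eWAT and liver, and -0.063 for *Ppard* and 0.13 for *Cebpa* between eWAT and muscle, and the genes called numbered 16 between muscle and liver and 3 between eWAT and muscle. With this library left out and a pseudocount of 0.1, 202 genes were DEGs in eWAT, with -0.053 for *Ppard*, 0.030 for *Cebpa* and 0.0065 for *Cebpd*. With it left out and limma voom, 106 were, with -0.051, 0.030 and 0.0060.

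Library weights gave 926 DEGs in liver and 220 in eWAT, with 0.13 for *Ppard* and 0.45 for *Cebpd* in liver, -0.029 for *Ppard* and 0.079 for *Cebpd* in eWAT, and -0.0027 for *Ppard* and 0.084 for *Cebpa* in muscle. The weights in liver did not converge and put 35.4 on 1 library.

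Under median-ratio scaling, 5215 genes were called between eWAT and liver (8809 otherwise), and the differences of the diet effect called 43 genes (99 otherwise) between eWAT and liver and 2 (0 otherwise) between eWAT and muscle. *Ppargc1a* (-0.94), *Ppargc1b* (-0.51) and *Rxra* (-0.75) turned to lower in eWAT than in liver, *Ppard* (-0.28) and *Rxra* (-0.42) to lower in eWAT than in muscle, and *Rxra* (-0.33) to lower in muscle than in liver. The diet effect of *Ppargc1a* in liver was -0.0065, and the difference for *Ppard* between eWAT and muscle was -0.048. With mitochondrially encoded genes left out, the diet effects were -0.13 for *Cebpb* and -0.21 for *Ppargc1a* in liver and -0.0053 for *Ppard* in muscle, *Ppargc1a* had -0.39 for eWAT over liver and *Rxra* -0.28 for muscle over liver, and 53 and 4 genes were called for eWAT against liver and muscle against liver.

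The libraries of the study's quality summary gave 35 DEGs in liver, with 0.14 for *Cebpd* and -0.054 for *Ppargc1a*, and the differences of the diet effect called 2455 genes (eWAT and liver), 1286 (muscle and liver, 8 otherwise) and 170 (eWAT and muscle). limma voom gave 64 DEGs in muscle, and 11 and 2 genes for the differences of eWAT and of muscle from liver. Without the filter, 7 genes were DEGs in muscle and 21 were called between eWAT and muscle, a pseudocount of 1 called 19 there, a pseudocount of 0.1 called 5 between muscle and liver, and the adjusted p alone gave 97 genes in muscle.

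With the replicate block, muscle had 54 DEGs while liver and eWAT each had 0, and the block changed the call of no regulator. By the labels, same-numbered CON and HSD libraries shared only a number in every tissue. The correlations of their deviations were -0.47, 0.40 and -0.21 in liver and -0.20, 0.06 and 0.41 in eWAT. Mice differ partly between tissues, and the part of other cell types in the bulk values was not tested.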
